A study of Mus musculus with 6 samples.

Results

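The genes of the insulin-like growth factor (IGF) system studied here were the ligand gene Igf1, the receptor genes Igf1r and Igf2r, and the binding protein genes Igfbp2, Igfbp3, Igfbp4, Igfbp5, Igfbp6 and Igfbp7. They are the rows of the count table whose gene identifiers carry these symbols, 9 of the 38293 genes listed, and 8 of the 9 had enough counts to be tested, all but Igfbp2. RNA-seq had been done on heart tissue of 3 WT and 3 Zeb2 cKO mice, all adult males of a C57BL/6J (backcrossed) strain. Every mouse had its left anterior descending coronary artery tied off permanently, and tissue was taken 14 days after this myocardial infarction (MI). The mice called WT in the labels are Zeb2 fl/fl in the study's methods, carrying floxed Zeb2 without Cre, and the Zeb2 cKO mice carry the same floxed alleles with Cre recombinase under the murine Myh6 promoter, which is active in cardiomyocytes. Zeb2 encodes a transcription factor that mostly represses its targets. The comparison asks what the loss of Zeb2 from cardiomyocytes does to RNA levels in the infarcted heart. The RNA was from whole tissue, in which fewer cells of a type and less RNA per cell cannot be told apart. The labels place the tissue in the border region of the infarct and the methods place it in the remote zone.

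IGF1 is a secreted growth factor made in liver and, locally, by cells such as macrophages and fibroblasts, and it acts on cells through the receptor tyrosine kinase IGF1R and the PI3K-AKT-mTOR and RAS-MAPK cascades. IGF2R, which is also the cation-independent mannose 6-phosphate receptor, binds IGF2 and takes it to lysosomes. The IGF binding proteins (IGFBPs) hold IGFs in plasma and tissue, keep them from the receptor or release them on proteolysis, and IGFBP7 binds IGFs with lower affinity than the others. In the heart this system is known for its part in growth and survival of cardiomyocytes and in repair after injury.

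ZEB2 binds the bases CACCT, and the E-box CACCTG contains them, so the 250 bases before the RefSeq start of each gene were searched for both on both strands. The RefSeq promoter table (build GRCm38.p6) matched 9 of the 9 genes and gave 10 windows, as Igfbp2 has a pair of starts. Shown here, because they cover the windows with CACCTG, with CACCT alone and without either, are those of Igf2r (chr17:12769707-12769956, minus strand), Igfbp3 (chr11:7213924-7214173, minus strand), Igfbp4 (chr11:99040994-99041243, plus strand) and Igfbp7 (chr5:77408046-77408295, minus strand). Each reads 5′ to 3′ along its gene and overlaps 0 annotated exons, and the capitals mark CACCT or its reverse complement AGGTG.
Igf2r: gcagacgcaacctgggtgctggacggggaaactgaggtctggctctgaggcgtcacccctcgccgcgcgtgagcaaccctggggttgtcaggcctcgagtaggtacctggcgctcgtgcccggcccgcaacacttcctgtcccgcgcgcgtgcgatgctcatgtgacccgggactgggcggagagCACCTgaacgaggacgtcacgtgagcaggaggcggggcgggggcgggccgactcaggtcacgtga
Igfbp3: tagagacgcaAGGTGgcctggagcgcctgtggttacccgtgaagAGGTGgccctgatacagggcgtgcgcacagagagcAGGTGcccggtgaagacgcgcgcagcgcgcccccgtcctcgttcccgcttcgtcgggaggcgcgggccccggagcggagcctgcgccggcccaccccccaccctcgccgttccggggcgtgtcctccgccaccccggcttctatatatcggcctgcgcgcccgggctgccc
Igfbp4: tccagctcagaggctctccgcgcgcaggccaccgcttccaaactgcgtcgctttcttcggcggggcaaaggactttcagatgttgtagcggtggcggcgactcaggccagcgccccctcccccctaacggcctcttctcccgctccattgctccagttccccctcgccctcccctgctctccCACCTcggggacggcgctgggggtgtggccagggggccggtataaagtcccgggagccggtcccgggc
Igfbp7: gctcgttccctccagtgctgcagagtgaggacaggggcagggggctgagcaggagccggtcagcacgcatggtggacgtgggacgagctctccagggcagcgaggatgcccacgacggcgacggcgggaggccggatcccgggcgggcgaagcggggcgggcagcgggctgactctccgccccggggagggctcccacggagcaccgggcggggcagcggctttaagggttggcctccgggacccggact

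CACCTG occurred in 2 of the 10 windows, against 17.2% of all 32841 promoter windows of this length. In Igf2r it lay 65 to 60 bases before the start on the strand of the gene, and in Igfbp3 172 to 167 bases before the start on the opposite strand. CACCT occurred in 5 of the 10 windows, against 46% of all, and its single match in Igfbp4 lay 68 to 64 bases before the start. The GC box GGGCGG, on either strand, occurred in 4 of the 10 windows, against 32.7% of all, with 4 matches in Igfbp7 and 3 in Igf2r. The TATA box TATAAA, on either strand, occurred in 2 windows against 12.4% of all, and in Igfbp4 it lay 28 to 23 bases before the start. These matches describe the letters of the windows, and a window without a match says only that the letters are not in it.

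Total counts were between 37.3 M and 51.1 M per library, of which 14.3 M to 19.0 M lay outside the mitochondrially encoded genes. Zeb2 was at 61.3 to 116.05 CPM, the usual measure of counts scaled to the normalized library size, in WT and at 59.6 to 72.6 CPM in Zeb2 cKO libraries, with a log2 fold change of -0.33 (SE 0.25, adjusted p = 0.957 by edgeR). Without WT replicate 2, the library at 116.05 CPM, it was -0.0058 (SE 0.12), so the level of Zeb2 in these libraries does not check the genotype labels. In each library 10 of 10 cardiomyocyte marker genes were above 0, and they summed to between 36984 and 71383 CPM. This goes with heart tissue but cannot tell the border region from the remote zone. WT replicate 2 stood apart, with a mean correlation with the other 5 libraries across genes of 0.943, against 0.973 to 0.979 for the others. In WT replicate 2 the 10 fibroblast markers summed to 9810 CPM and were all at their highest of the 6 libraries, against 1731 to 2376 CPM in the other 5, and 9 of 10 macrophage markers were at their highest, with a sum of 880 CPM against 228 to 316 CPM. The same library held the lowest level of 9 of 10 cardiomyocyte, 7 of 10 endothelial and 5 of 6 mural markers, and no fibroblast, macrophage, endothelial or mural marker was at 0 in any library. Of 6 adipocyte markers, 1 had enough counts to be tested, their sum was at most 2.96 CPM, and Lep and Retn were at 0 in a library. The fold changes of the 8 tested IGF genes are therefore given with all 6 libraries and without WT replicate 2.

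None of the 8 tested IGF genes passed the test between Zeb2 cKO and WT (0 of 8, against 0% of the 14746 genes tested; adjusted p = 0.957 for each of the 8, from the quasi-likelihood test of edgeR after Benjamini-Hochberg adjustment). An unadjusted p under 0.05 was reached by 0 of the 8 and by 280 of all tested genes (1.9%), and with DESeq2 0 of the 8 and 2 of all tested genes (0.0136%) passed. The mean was lower in Zeb2 cKO for 8 of 8, where 51.4% of all genes were also under 0, and 7 lay under a log2 fold change of -0.2, the cut-off used in the study, as did 22.6% of all genes. None lay over 0.2, against 15.9% of all genes, and the median was -0.51 over the 8 and -0.0069 over all tested genes. Without WT replicate 2, 4 of 8 were under 0 (49.1% of all genes), 2 under -0.2 (11.7% of all genes) and 1 over 0.2 (14.2%), and the median was 0.0044, beside 0.0025 for all tested genes. The libraries of the groups overlapped for each of the 9 genes, whereas they did not overlap for 6.36% of all tested genes.

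**Figure D1:**
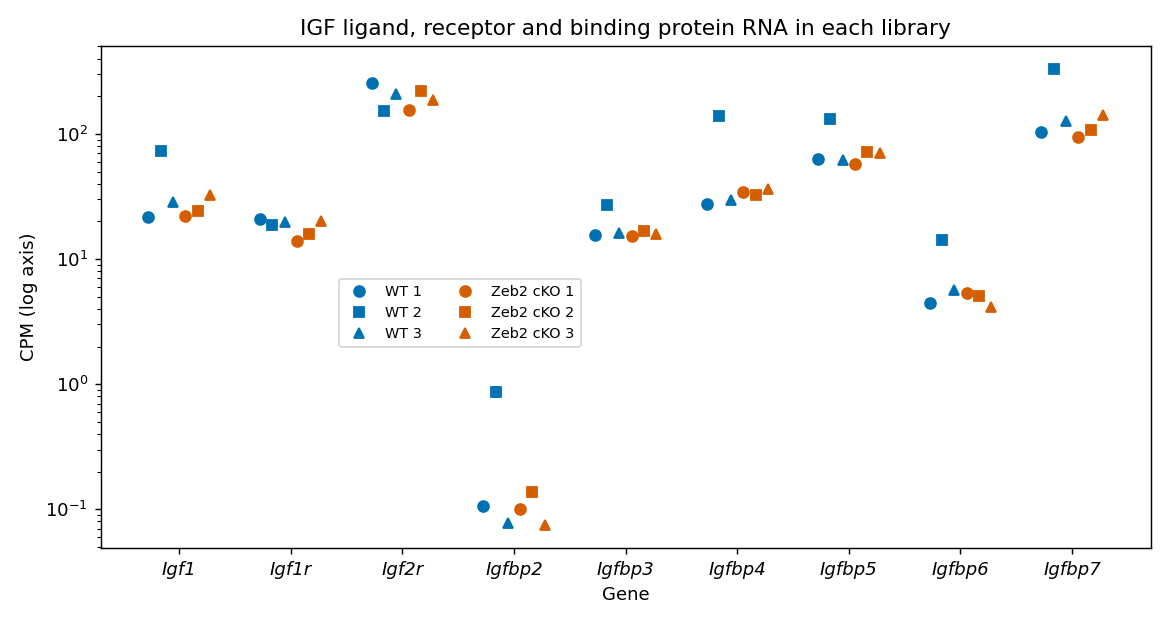
Levels of the 9 IGF genes in each library, in CPM on a log axis, with WT libraries in blue, Zeb2 cKO libraries in orange and the marker shape giving the replicate number. WT replicate 2 (blue square) is the highest point for Igf1 and for Igfbp2 to Igfbp7, and the lowest for Igf2r.

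Igf1 (ENSMUSG00000020053, chromosome 10, 87858265 to 87937042, plus strand, GRCm38), the growth factor itself, was at 21.7, 73.4 and 28.7 CPM in WT replicates 1, 2 and 3 and at 21.9, 24.3 and 32.7 CPM in Zeb2 cKO replicates 1, 2 and 3. WT replicate 2 was the high library and the other 5 lay within a 1.51-fold range, so the groups overlapped. The means were 41.3 ± 28.1 and 26.3 ± 5.69 CPM (SD, n = 3 each), and the log2 fold change was -0.65 (SE 0.45, 95% interval -1.72 to 0.42). Without WT replicate 2 it was 0.07 (SE 0.20, -0.39 to 0.52). The antisense gene Igf1os lies opposite Igf1, shares 0 exon bases with it and had at most 3 counts in a library.

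Igf1r (ENSMUSG00000005533, chromosome 7, 67952827 to 68233668, plus strand), the receptor that signals, was at 20.9, 18.8 and 19.8 CPM in WT and at 13.9, 15.8 and 20.0 CPM in Zeb2 cKO, in the order of the replicates. The lowest libraries were Zeb2 cKO 1 and 2, while Zeb2 cKO 3 lay among the WT libraries. The means were 19.8 ± 1.05 and 16.6 ± 3.10 CPM, with a log2 fold change of -0.26 (SE 0.15, 95% interval -0.62 to 0.11). This was the member whose fold change rested least on WT replicate 2 among the 8 tested, with -0.29 (SE 0.16, -0.66 to 0.08) without it.

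Igf2r (ENSMUSG00000023830, chromosome 17, 12682406 to 12769664, minus strand), the receptor that clears IGF2, was at 255, 153 and 207 CPM in WT and at 155, 221 and 188 CPM in Zeb2 cKO. WT replicates 1 and 2 were the highest and the lowest of the 6 libraries, and the Zeb2 cKO libraries lay between them. The log2 fold change was -0.13 (SE 0.23, 95% interval -0.68 to 0.42), and it was -0.30 (SE 0.17, -0.69 to 0.10) without WT replicate 2 and 0.06 without WT replicate 1. The antisense gene Airn, known for its part in the imprinting of Igf2r, overlaps it on the opposite strand with 0 shared exon bases and had 600 to 1109 counts per library.

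Igfbp7 (ENSMUSG00000036256, chromosome 5, 77349240 to 77408041, minus strand), a secreted protein known from blood vessels and matrix, was at 103, 331 and 126 CPM in WT and at 94.5, 107 and 141 CPM in Zeb2 cKO. WT replicate 2 was again high, and the other 5 libraries were within a 1.49-fold range. Its log2 fold change was -0.71 (SE 0.45, 95% interval -1.77 to 0.35) with all libraries and -0.0048 (SE 0.18, -0.43 to 0.42) without WT replicate 2. On the opposite strand its exons share 85 bases (7.03%) with Polr2b, and the 77 near-identical bases found for it are in that gene, so a small part of its counts is uncertain unless the counting used strand, which is not stated.

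Igfbp4 (ENSMUSG00000017493, chromosome 11, 99041244 to 99054392, plus strand), whose protein releases IGF when the protease PAPP-A cleaves it, was at 27.5, 138 and 29.9 CPM in WT and at 34.3, 32.5 and 36.4 CPM in Zeb2 cKO. It had the lowest log2 fold change of the 8 tested, -0.92 (SE 0.61, 95% interval -2.38 to 0.53), and the widest interval. Without WT replicate 2 the sign turned to 0.26 (SE 0.10, 0.03 to 0.50). Its unadjusted p from edgeR was then 0.0312, a value under 0.05 like that of 2.63% of all genes, and it did not pass the test (adjusted p = 1.000 by edgeR), while all 3 Zeb2 cKO libraries were above WT replicates 1 and 3. This was the single IGF gene whose groups did not overlap without that library, where 8.07% of all genes were higher without overlap. In the longest transcript 9.66% of the bases had a near-identical match in 30 other genes, and reads from there may be split or lost.

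Igfbp5 (ENSMUSG00000026185, chromosome 1, 72857932 to 72874884, minus strand), whose protein binds extracellular matrix, was at 63.5, 132 and 61.8 CPM in WT and at 57.6, 72.1 and 70.9 CPM in Zeb2 cKO. Igfbp3 (ENSMUSG00000020427, chromosome 11, 7206086 to 7213923, minus strand), the main carrier of IGFs in plasma, was at 15.6, 27.1 and 16.0 CPM in WT and at 15.3, 16.7 and 15.8 CPM in Zeb2 cKO. Both were highest in WT replicate 2, and among the other 5 libraries Igfbp3 varied 1.10-fold, the narrowest range of the 9 genes, and Igfbp5 1.25-fold. The log2 fold change of Igfbp5 was -0.36 (SE 0.31, 95% interval -1.10 to 0.38), and 0.10 (SE 0.12) without WT replicate 2. For Igfbp3 it was -0.30 (SE 0.23, -0.83 to 0.24), and 0.01 (SE 0.10) without WT replicate 2.

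Igfbp6 (ENSMUSG00000023046, chromosome 15, 102144362 to 102149511, plus strand), which prefers IGF2 over IGF1, was at 4.49, 14.1 and 5.68 CPM in WT and at 5.32, 5.02 and 4.11 CPM in Zeb2 cKO. Its log2 fold change was -0.75 (SE 0.42, 95% interval -1.75 to 0.25), and -0.08 (SE 0.17) without WT replicate 2, the high library. Igfbp2 (ENSMUSG00000039323, chromosome 1, 72824503 to 72852474, plus strand) had 4, 38 and 3 counts in WT and 5, 6 and 4 counts in Zeb2 cKO. WT replicate 2 was high and the other 5 libraries had 3 to 6 counts. Igfbp2 fell below the filter, and the exact permutation test over its CPM gave a two-sided p of 0.6 (n = 3 each, where 0.1 is the smallest p). The mean was 0.350 CPM in WT and 0.104 CPM in Zeb2 cKO, and without WT replicate 2 the WT mean was 0.0922 CPM, below that of Zeb2 cKO.

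**Figure D2:**
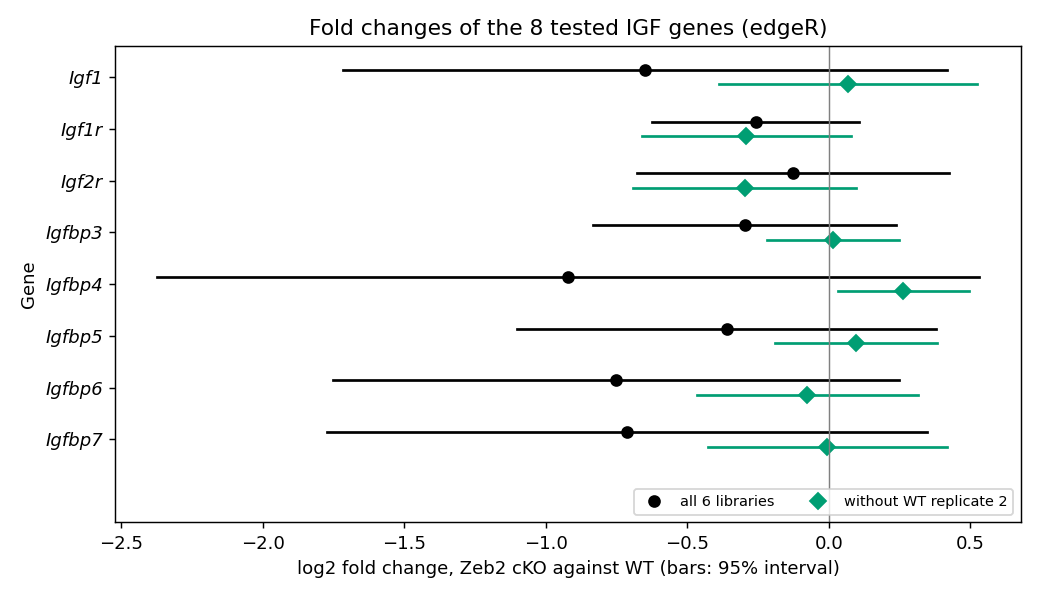
Log2 fold changes of the 8 tested IGF genes, Zeb2 cKO against WT, on the x axis, with bars for the 95% intervals, for all 6 libraries (black circles) and without WT replicate 2 (green diamonds). All 8 black points are under 0 with intervals that include 0, and without WT replicate 2 the points of Igf1, Igfbp3, Igfbp4 and Igfbp5 are over 0, with the interval of Igfbp4 above 0.

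WT replicate 2 held the highest level of 7 of the 9 IGF genes, the ligand and the 6 binding proteins, and of 35.2% of all tested genes. Against the mean of the other 5 libraries it was 8.71-fold for Igfbp2, 4.30-fold for Igfbp4, 2.90-fold for Igfbp7, 2.86-fold for Igfbp6, 2.84-fold for Igf1, 2.03-fold for Igfbp5 and 1.71-fold for Igfbp3. The receptors did not share this, at 1.04-fold for Igf1r and 0.745-fold for Igf2r, which was at its lowest there, like 34.6% of all tested genes. A ratio of at least 2 was seen in 5 of the 8 tested IGF genes and in 9.33% of all tested genes. The fibroblast markers were 4.96-fold, the macrophage markers 3.13-fold and the cardiomyocyte markers 0.56-fold in the same library, and their part in the levels of the IGF genes was not tested.

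**Figure D3:**
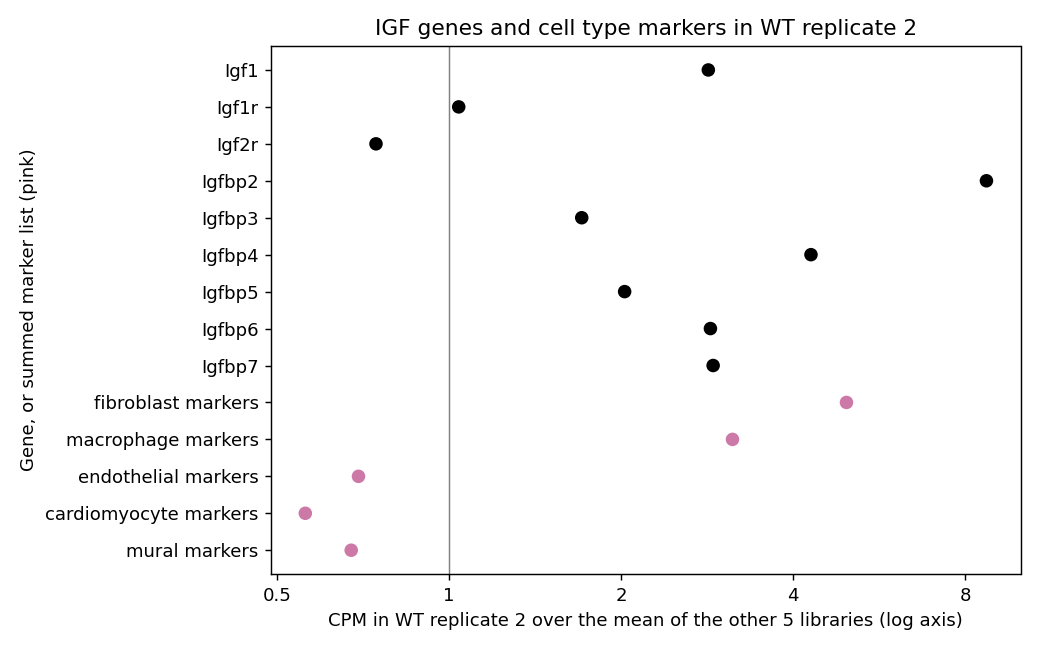
Level in WT replicate 2 divided by the mean of the other 5 libraries (x axis, log scale), for the 9 IGF genes (black) and for the summed levels of 5 marker lists (pink). The ligand and the binding proteins lie to the right of 1 with the fibroblast (4.96) and macrophage (3.13) markers, Igf1r is near 1, and Igf2r lies to the left with the endothelial, mural and cardiomyocyte markers.

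Of 18 values of WT replicate 2, each a member set relative to the fibroblast or macrophage markers, 3 lay within the range of the other 5 libraries. Set relative to the mean log2 CPM of the macrophage markers, Igf1 in WT replicate 2 was at 0.85, within the 0.46 to 0.99 of the other 5 libraries. Relative to the fibroblast markers it was at -2.03, below the -1.53 to -1.30 of the others. Igfbp7 was likewise within range relative to the macrophage markers, at 3.03 against 2.57 to 3.10, but was below it relative to the fibroblast markers, at 0.14 against 0.57 to 0.86. Igfbp4 was within range relative to the fibroblast markers, at -1.12 against -1.28 to -0.89, but was above it relative to the macrophage markers, at 1.76 against 0.72 to 1.14. Igfbp3 and Igfbp5 were below their other libraries on the fibroblast scale, at -3.47 against -2.34 to -1.87 and at -1.18 against -0.24 to 0.21. Between the groups, Igf1 relative to the macrophage markers was 0.74 ± 0.10 in WT and 0.65 ± 0.30 in Zeb2 cKO (log2, SD, n = 3 each; exact permutation test, two-sided p = 0.6). Relative to the fibroblast markers it was -1.59 ± 0.38 and -1.40 ± 0.12 (exact permutation test, two-sided p = 0.6).

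Per length of exon, as CPM per kilobase (RPKM), the order of mean levels over the 6 libraries was Igfbp7, Igf2r, Igfbp5, Igfbp4, Igfbp6, Igfbp3, Igf1, Igf1r and Igfbp2. Igfbp7 was at 125 ± 74.6 RPKM (SD, n = 6) and above Igf2r, at 21.1 ± 4.25 RPKM, in 6 of 6 libraries. Igf2r exceeded Igfbp5 (12.7 ± 4.64 RPKM) in 5 of 6 libraries, and Igfbp5 exceeded Igfbp4 (11.3 ± 9.81 RPKM) in 5 of 6. Igfbp6 (5.80 ± 3.41 RPKM) had a higher mean than Igfbp3 (5.68 ± 1.47 RPKM) but exceeded it in 1 of 6 libraries, WT replicate 2, and by their medians, 4.65 and 5.09 RPKM, Igfbp3 came first. Igfbp5 and Igfbp4, and likewise Igfbp6 and Igfbp3, had means that differed by less than the SD of either gene. The means of Igfbp4 and Igfbp2 rested on WT replicate 2, and their medians were 7.56 and 0.0558 RPKM. The low end was Igf1 at 3.41 ± 2.01 RPKM, Igf1r at 1.08 ± 0.163 RPKM and Igfbp2 at 0.123 ± 0.170 RPKM, each above the next in 6 of 6 libraries. With the length of the longest transcript in place of all exons these counts of libraries were the same, but the means of Igfbp4 (13.0 RPKM) and Igfbp5 (12.7 RPKM) and those of Igfbp3 (7.34 RPKM) and Igfbp6 (5.80 RPKM) changed places.

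Igfbp7 made up 74.3% to 80.1% of the summed binding protein RNA per length, Igfbp5 6.30% to 10.2% and Igfbp4 5.14% to 8.94%. The share of Igfbp4 was highest, and that of Igfbp3 (2.48% to 4.64%) and of Igfbp5 lowest, in WT replicate 2. The summed binding proteins were at 111, 349 and 132 RPKM in WT and at 105, 118 and 145 RPKM in Zeb2 cKO. Igf1 is not part of this sum, and as most of the sum was Igfbp7, its ratio to the sum is mainly its ratio to Igfbp7. While the sum ran from 105 to 349 RPKM, Igf1 equalled 1.96%, 2.12% and 2.20% of it in WT. In Zeb2 cKO it equalled 2.10%, 2.08% and 2.27%. On the log2 scale the difference, Zeb2 cKO minus WT, was 0.039 (exact permutation test, two-sided p = 0.6). Igf2r exceeded Igf1r per length in every library, 22.0-, 14.7- and 18.9-fold in WT and 20.1-, 25.2- and 16.9-fold in Zeb2 cKO, with the lowest ratio in WT replicate 2. The log2 ratio of Igf1r over Igf2r was -4.19 ± 0.30 in WT and -4.35 ± 0.29 in Zeb2 cKO (SD, n = 3 each; exact permutation test, two-sided p = 0.5). Over the 4 such within-library values tested, the Benjamini-Hochberg adjusted value was 0.6 for each (exact permutation tests).

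**Figure D4:**
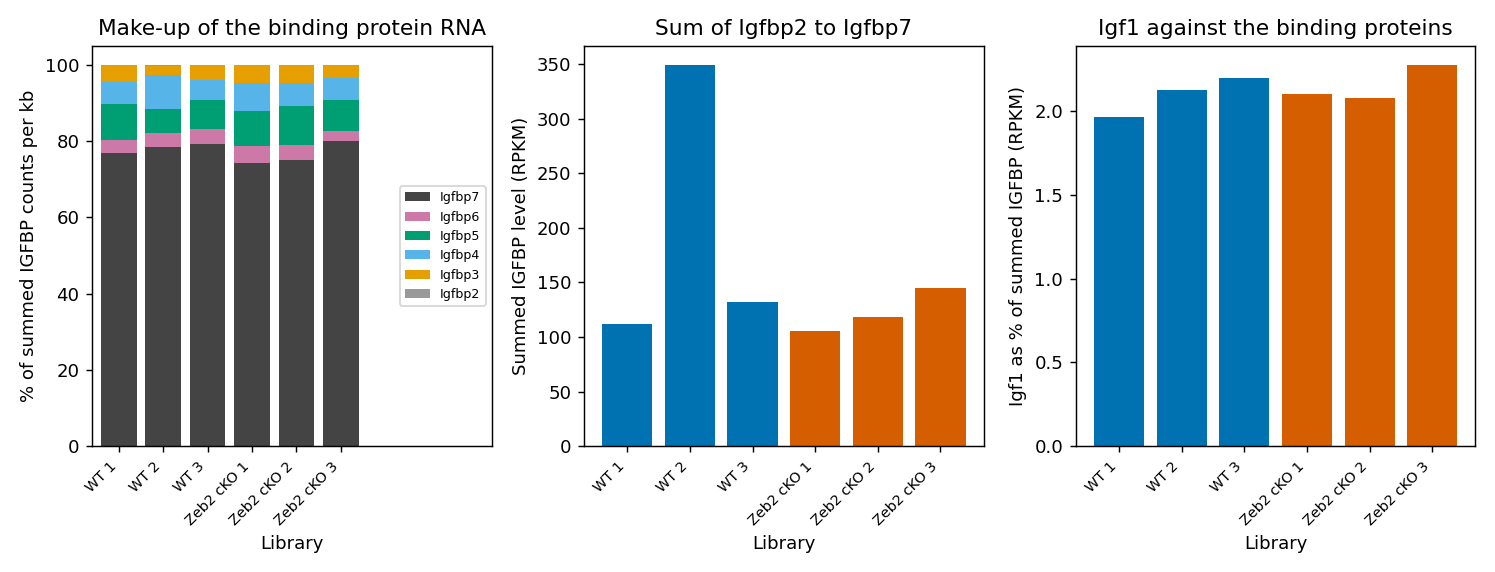
Left, each binding protein gene as a percent of the summed Igfbp2 to Igfbp7 level per length in each library; middle, that sum in RPKM; right, Igf1 as a percent of the sum, with WT in blue and Zeb2 cKO in orange in the middle and right panels. Igfbp7 takes at least 74.3% in every library, and the sum is highest in WT replicate 2 at 349 RPKM. Igf1, which is not in the sum, equals 1.96% to 2.27% of it.

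The genes with the pattern most like that of a member were found by the root mean square difference of centred log2 CPM over the 6 libraries. For Igf1 they were Ppic (0.048), Igfbp7 (0.051) and Lrch2 (0.054), where the median over all tested genes was 0.638. Over the 5 libraries without WT replicate 2, Igf1 and Igfbp7 differed by 0.055, the nearest genes to Igf1 were Shcbp1 (0.018), Ppic (0.018) and Lrrc8d (0.039), and the median was 0.277. For Igfbp4 the nearest over 6 libraries were Cpxm1 (0.077), Cd180 (0.081) and Anpep (0.096). For Igf1r they were Tpt1 (0.042), Atn1 (0.051) and Rnf44 (0.065), and for Igf2r Cep164 (0.061), Ccnjl (0.069) and Nr1h4 (0.070). Among pairs of members, Igf1 and Igfbp7 were the closest and Igfbp2 and Igf2r the farthest apart (1.17). Without WT replicate 2, Igf1 and Igfbp7 were still the closest, Igfbp2 and Igf2r were at 0.27, and Igf1 and Igfbp2 were the farthest apart (0.42). Igfbp2 had 3 to 6 counts in each of the 5 libraries, so its distances rest on few counts without WT replicate 2. The nearest genes of Igfbp4, Igf1r and Igf2r were all others without that library, for Igfbp4 Nt5c (0.022), Kdsr (0.023) and Pced1a (0.027).

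Of 52 other genes of the IGF pathway, 46 were tested and 0 passed (edgeR's quasi-likelihood test, adjusted p under 0.05), 0 reached an unadjusted p under 0.05, and DESeq2 also called 0. Their median log2 fold change was -0.042, 8 lay under -0.2 (22.6% of all tested genes), 4 over 0.2 (15.9% of all) and 34 between. Without WT replicate 2 the median was -0.067, with 7 under -0.2 (11.7% of all tested genes) and 2 over 0.2 (14.2% of all). The widest values were among the 8 tested extracellular partners of the ligands (-0.81 to 1.00), while the 20 genes of the PI3K-AKT-mTOR cascade lay between -0.24 and 0.17 and the 6 of the RAS-MAPK cascade between -0.07 and 0.15. The 2 tested receptors, Insr and Ghr, and the 1 tested Igf2 mRNA binding protein gene lay between -0.2 and 0.2, and of the 9 tested adaptor genes 2 were under -0.2 and 2 over 0.2.

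Gsk3b, a kinase that AKT inhibits, was the single pathway gene of the 46 whose groups did not overlap, at 46.7, 49.2 and 47.4 CPM in WT and 37.1, 38.1 and 46.5 CPM in Zeb2 cKO. All 3 Zeb2 cKO libraries were lower, with Zeb2 cKO 3 close to the WT libraries, and 2.97% of all tested genes were likewise lower without overlap. Its log2 fold change was -0.24 (SE 0.13, 95% interval -0.54 to 0.07), and -0.21 without WT replicate 2. Without that library 10 of the 46 genes were lower in all Zeb2 cKO libraries, against 7.48% of all genes, and 1 was higher, against 8.07%. Of the 10, 7 were in the PI3K-AKT-mTOR cascade. Their log2 fold changes without WT replicate 2 ran from -0.23 to -0.056, and their lowest unadjusted p by edgeR was 0.061.

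The following genes were chosen after their values were seen. Igf2, the other ligand, was at 9.45, 6.47 and 6.30 CPM in WT and at 8.57, 11.3 and 10.4 CPM in Zeb2 cKO, and WT replicate 1 overlapped the Zeb2 cKO libraries. Its log2 fold change was 0.45 (SE 0.20, 95% interval -0.03 to 0.92) with all libraries and 0.36 without WT replicate 2. Igfals, whose protein holds IGF and IGFBP3 in plasma, was at 2.55, 0.319 and 2.68 CPM in WT and at 4.44, 4.36 and 2.29 CPM in Zeb2 cKO. It was lowest in WT replicate 2, and its log2 fold change was 1.00 (SE 0.67) with that library and 0.50 without it. Pappa, the gene of the protease PAPP-A, was at 1.46, 6.43 and 1.85 CPM in WT and at 1.76, 2.17 and 1.64 CPM in Zeb2 cKO. It was highest in WT replicate 2, as were Igfbp4 and 35.2% of all tested genes. The log2 fold change of Pappa was -0.81 (SE 0.55), and 0.16 without WT replicate 2.

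**Figure D5:**
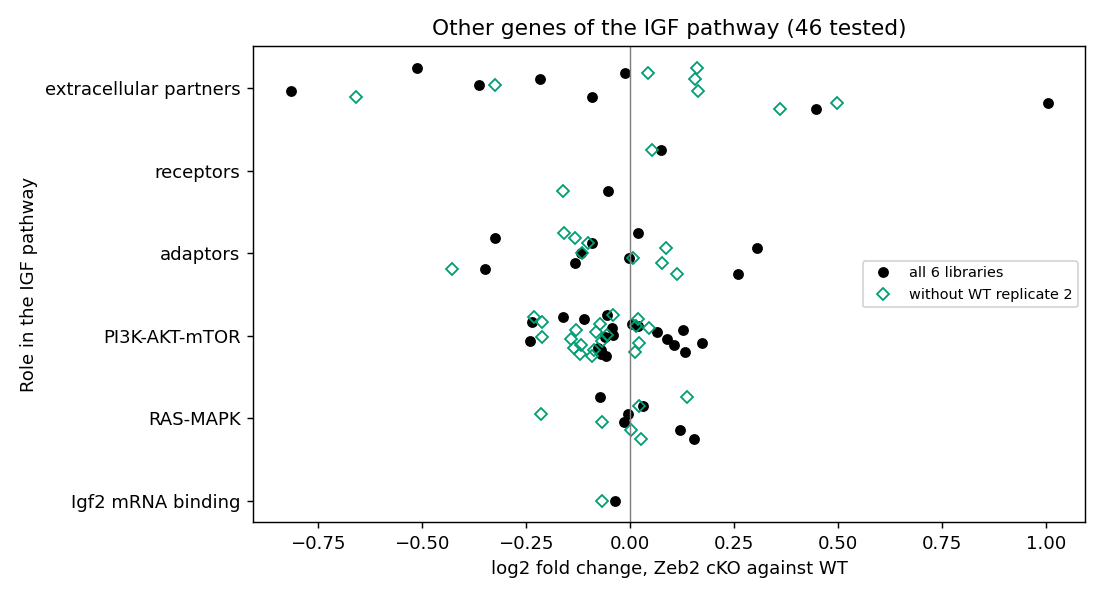
Log2 fold changes of the 46 tested IGF pathway genes outside the 9 members, Zeb2 cKO against WT (x axis), by role (y axis), for all 6 libraries (black) and without WT replicate 2 (green). The extracellular partners spread from -0.81 to 1.00 with all libraries, and the PI3K-AKT-mTOR and RAS-MAPK genes lie within -0.24 to 0.17.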

How the data were processed

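RNA-seq counts were analysed for heart tissue of 3 WT and 3 Zeb2 cKO mice 14 days after MI, grouped by the sample labels. According to the methods, the authors depleted ribosomal RNA, made stranded libraries and used the STAR workflow for alignment and counting on Gencode M4 genes. They deposited raw counts in 1 table. The strand option is not given in the sources used here. The submitters' processing notes name GRCm38 and DESeq 1.2. All 6 columns were matched to samples.

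From these counts, library sizes were scaled by TMM using edgeR 4.0.16 under R 4.3.3, genes were kept by filterByExpr, and groups were compared with the quasi-likelihood test, without a block, and Benjamini-Hochberg adjustment over the 14746 genes kept (prior count 0.125 for fold changes, 2 for log2 CPM). Symbols and positions came from Gencode M21 (GRCm38) and promoters from RefSeq. RPKM used the union of exons. Near-identical stretches, at least 75 bases at 95% identity, were searched with BLAST 2.17.0 (Python 3.11.15). Within-library values were compared with exact permutation tests, two-sided. The steps were tested on simulated data. Libraries held 37.3 M to 51.1 M counts, of which 14.3 M to 19.0 M lay outside the mitochondrially encoded genes. Igfbp2 had 3 to 38 counts per library. Counting error and the spread between mice were not separated.

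The members and lists were chosen with earlier results of these data known. The genes named were the members, pathway genes with an unadjusted p under 0.05 or groups that do not overlap, the 3 genes most like a member, markers, and overlapping genes. Igf2, Igfals, Pappa, Insr and Ghr are named outside this rule. Marker lists covered fibroblasts, macrophages, endothelial cells, cardiomyocytes, mural cells and adipocytes. Alternatives covered size factors, the filter, DESeq2 1.42.0, robust dispersions, mitochondrially encoded genes, the replicate block, leaving out each library, and the definition of the within-library values. Protein sequences were not used here.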

Additional observations from a re-analysis of the deposited data

How the results depend on the processing

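No IGF gene passed an adjusted p of 0.05 under any setting run, and over edgeR settings the lowest adjusted p of a member was 0.596, while 122 to 1134 genes had an unadjusted p under 0.05. DESeq2 called 2 genes higher where edgeR called 0. Other normalizations, filters, dispersions and DESeq2 left the direction of all 8 tested members as it was, and the fit without a filter gave Igfbp2 a log2 fold change of -1.75 (SE 0.87, adjusted p = 0.858, edgeR), whereas without WT replicate 2 its mean CPM was lower in WT (0.0922) than in Zeb2 cKO (0.104).

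Leaving out WT replicate 2 reversed Igf1 (0.067), Igfbp3 (0.014), Igfbp4 (0.26) and Igfbp5 (0.10), and leaving out WT replicate 1 reversed Igf2r (0.062). Over the 6 fits that leave out a library, log2 fold changes ranged from -0.96 to 0.067 for Igf1, -0.42 to -0.15 for Igf1r, -0.30 to 0.062 for Igf2r, -0.44 to 0.014 for Igfbp3, -1.29 to 0.26 for Igfbp4, -0.55 to 0.10 for Igfbp5, -1.04 to -0.08 for Igfbp6 and -1.0 to -0.0048 for Igfbp7. Members under -0.2 numbered 2 to 8 and over 0.2 0 to 1, and pathway genes over 0.2 numbered 2 (without WT replicate 2) to 11 (without WT replicate 1).

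The log2 difference of Igf1 against binding proteins was -0.013 without division by length and -0.0076 to 0.074 when libraries were left out. Igf1 against macrophage markers was 0.13 with the median of the markers, 0.015 with their summed CPM and -0.26 to 0.0073 without a library. Igf1 against fibroblast markers ran from -0.028 (without WT replicate 2) to 0.32, and Igf1r against Igf2r from -0.30 to -0.0048. The cause of these reversals was not tested.

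Deviations of same-numbered libraries correlated at 0.088, -0.137 and -0.087 across genes. Those of unlike-numbered libraries ran from -0.263 to 0.238, so these values cannot decide whether the replicate numbers pair the mice. With the replicate number as a block, log2 fold changes were -0.45 for Igf1, -0.27 for Igf1r, -0.11 for Igf2r, -0.25 for Igfbp3, -0.46 for Igfbp4, -0.27 for Igfbp5, -0.58 for Igfbp6 and -0.52 for Igfbp7, and 0 genes were called, with 247 at an unadjusted p under 0.05. With 3 mice a group an exact test cannot go below 0.1.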
